A study of Mus musculus with 8 samples.

Results

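The mouse zinc finger genes named Zfp500 to Zfp999 were read on 295 of the 45037 probe sets of an Affymetrix array, a probe set being the group of short probes that reads one transcript. A probe set was taken when its annotation held a single symbol in that range, so no measured value chose the members. They stand for 165 of the 18193 genes with a symbol of their own, 83 with 1 probe set and 82 with 2 or more, up to 7. A further 20 probe sets whose annotation joins such a gene to another symbol were left out.

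The arrays measured total RNA of mouse embryonic stem (ES) cells carrying short hairpin RNA (shRNA), either a control or a hairpin against Rif1, whose protein acts at telomeres, replication origins and silent chromatin. J1 cells, of strain 129S4/SvJae, were collected 48 h after transfection with control shRNA or with Rif1 shRNA. F1 cells, of background C57BL/6xC3H, were collected at passage 16, with control shRNA or as a stable Rif1 shRNA line. The labels of the F1 control arrays give control shRNA as the transfection but the stable knockdown as the cell line. Every group had 2 arrays, and all cells were grown on feeder cells. The labels do not say whether the arrays of a group came from separate cultures or, for the stable line, from separate clones, so the p-values measure the spread between these samples only, which may be technical.

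C2H2 zinc finger proteins carry rows of fingers, each of which contacts a few bases of DNA. In mouse, many genes of this number series also encode a KRAB domain, which recruits the co-repressor TRIM28 and through it the H3K9 methyltransferase SETDB1. KRAB zinc finger proteins bind transposable elements and a few imprinted genes in ES cells and hold them silent, and their genes often lie side by side in clusters that grew by duplication. Other genes of the series have no KRAB domain and act in development, in chromatin complexes or on ribosomes.

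The knockdown was read on 4 Rif1 probe sets, which had lower signals on every knockdown array than on every control array of the same cells. One of them, 1429491_s_at, had a deposited signal of 2614 and 3222 in J1 control against 1260 and 1297 in the J1 knockdown, and of 4231 and 4247 in F1 control against 1339 and 1407 in the F1 knockdown. Its log2 fold change was -1.08 in J1 and -1.74 in F1, and all 4 probe sets passed in both cells (limma, adjusted p under 0.05). The probe set 1429490_at lost its J1 call (log2 fold change -1.35, adjusted p = 0.0312) without J1 control replicate 1 (adjusted p = 0.118) or 2 (0.186) and without J1 Rif1 shRNA replicate 1 (0.0724) or 2 (0.0879). The arrays of J1 and F1 had different overall levels, with 2% trimmed means of 193 to 197 and of 301 to 309, and array medians were 61.1 to 69.4. Fold changes here are therefore differences of group means of quantile-normalized log2(signal + 18), where the offset shrinks the change of dim probe sets. Across the members, the replicates of a group correlated at 0.981 to 0.993. The median residual standard deviation of the members was 0.133 in J1 and 0.0684 in F1 on that scale, and the fit used 1 shared spread for both cells.

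Most members gave a signal above the dim end of the array in both kinds of control cell. In J1 control 195 of 295 member probe sets (66.1%) exceeded the 40th percentile of the array on both arrays, against 57.4% of all probe sets. In F1 control 204 did (69.2%, against 58% of all). A total of 232 member probe sets of 145 genes exceeded it on at least 2 of the 8 arrays and were tested, which is 78.64% against 70.18% of all. The 63 others include every probe set of 20 genes, among them Zfp536, Zfp541, Zfp572, Zfp616, Zfp786 and Zfp983, for which no change can be read. Mean signals of member probe sets ran from 8.40 to 2967 in J1 control, with a median of 82.1, and from 3.93 to 4433 in F1 control, with a median of 95.1. The highest values in both were those of Zfp622 (1438000_x_at), which encodes a factor for late steps of the large ribosomal subunit. Signals of different probe sets depend on their probes and set no order among genes.

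The first comparison asked how these genes stood 48 h after Rif1 knockdown in J1 cells. Only 3 of the 232 tested probe sets passed: Zfp711 rose, and Zfp661 and Zfp710 fell. That is 1.29% of members, beside 3.18% of all 31605 probe sets tested, of which 1.44% rose and 1.74% fell. No member changed at least 2-fold, which 0.133% of all tested probe sets did. An unadjusted p under 0.05 was found for 39 members (16.8%), near the 17.1% of all tested.

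Zfp711, an X-linked gene whose protein works with the histone demethylase PHF8 and is affected in inherited intellectual disability, had signals of 116 and 118 in J1 control and 186 and 161 in J1 Rif1 shRNA. Both knockdown arrays were above both control arrays, with a log2 fold change of 0.57 (SE 0.12, limma adjusted p = 0.0325). Zfp661, a KRAB zinc finger gene whose protein limits CTCF at the protocadherin genes, had 79.2 and 71.0 in control and 49.9 and 54.5 in knockdown arrays. Its level was lower on both knockdown arrays (log2 fold change -0.53, SE 0.11, limma adjusted p = 0.0252). Zfp710 (1435168_at) had 640 and 675 in control and 463 and 534 in knockdown arrays, again without overlap (log2 fold change -0.38, SE 0.09, limma adjusted p = 0.0485). Nearest to passing were Zfp820 (1455786_at; log2 fold change -0.54, limma adjusted p = 0.0537) and Zfp935 (1430074_x_at; -0.53, limma adjusted p = 0.0544), which did not pass. None of the J1 calls is firm. All 3 missed the threshold without J1 control replicate 1 or 2, and without any single F1 array. Over all settings tried, adjusted p reached 0.132 for Zfp711, 0.151 for Zfp661 and 0.219 for Zfp710. The number of members passing was 1 and 0 without J1 control replicate 1 and 2, 8 and 5 without J1 Rif1 shRNA replicate 1 and 2, and 0 without each F1 array. In the J1 arrays the actin 3′ to 5′ signal ratio, a sign of RNA quality, was 2.71 and 2.61 in control and 2.18 and 2.17 in knockdown cells, and its part in the J1 values was not tested.

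Although few probe sets passed, the distribution of J1 effects lay lower for the members than for all probe sets. The median log2 fold change was -0.07 over the 232 members and 0.00 over all tested (-0.001383 before rounding), and 35.3% of members lay above 0, against 49.7% of all. The middle of the member distribution ran from -0.19 at the lower quartile to 0.06 at the upper one, and its ends were -0.55 and 0.57. Under every scaling, offset, filter and left-out array tried, the member median stayed below that of all tested, with differences of -0.103 to -0.0362. This is a description with no test of the group, since genes of a family are not independent of each other. Markers of other cells also moved in J1. Of 14 measured feeder fibroblast markers 4 fell and 0 rose, with summed signals of 13113 to 13991 in control and 12172 to 12449 in knockdown arrays, and the lowest was Acta2 (-1.88). Of 6 trophoblast and simple epithelium markers 2 fell and 0 rose, with summed signals of 2180 to 2412 and of 1650 to 1657. Their part in the J1 values of the zinc finger genes was not tested.

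**Figure D1:**
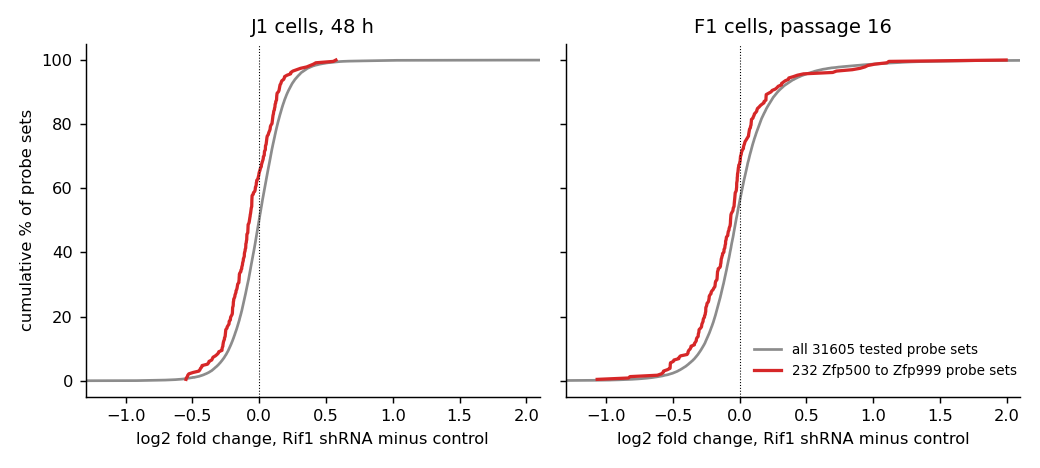
Cumulative share (percent, vertical axis) of probe sets at or below each log2 fold change (horizontal axis, Rif1 shRNA minus control) in J1 cells at 48 h (left) and F1 cells at passage 16 (right); red is the 232 tested Zfp500 to Zfp999 probe sets and grey all 31605 tested. The red curve lies to the left of the grey one around 0 in both cells, with medians of -0.07 and -0.07 against 0.00 and -0.03, and in F1 the highest member is Zfp560 at 1.99.

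The next comparison asked the same of the stable F1 knockdown. Of the 232 members, 37 passed: 13 probe sets of 8 genes rose and 24 probe sets of 20 genes fell. That is 15.9% of members, close to the 15.1% of all probe sets tested. By direction, 5.6% of members rose against 8.28% of all, and 10.3% fell against 6.81% of all. At least 2-fold changes were found for 5 members of 4 genes (2.16%, against 1.47% of all): Zfp560, Zfp703 and Zfp503 rose and Zfp991 fell. In each of the 37 the knockdown and control arrays did not overlap, which held for 100% of the 4768 probe sets called over the whole array and so says nothing particular to the members.

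The largest rise was that of Zfp560 (1438026_at), which had signals of 349 and 339 in F1 control and 1633 and 1482 in F1 Rif1 shRNA. The knockdown arrays were far above both controls, with a log2 fold change of 1.99 (SE 0.17, limma adjusted p = 1.75e-05). In J1 the same probe set had 143 and 156 in control and 269 and 179 in knockdown arrays (log2 fold change 0.55, adjusted p = 0.107), so the groups did not overlap but the difference did not pass. Zfp503 and Zfp703 encode related co-repressors of the NET family that work in tissue patterning. Zfp503 (1423836_at) had 61.1 and 60.2 in control and 188 and 174 in knockdown arrays (log2 fold change 1.10, SE 0.10, limma adjusted p = 4.09e-05). Its other probe set, 1423835_at, rose as well, from 76.8 and 52.0 to 189 and 159 (1.01, limma adjusted p = 0.00106).

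Zfp703 gave opposite readings on its probe sets. On 1436026_at the signals were 55.3 and 54.5 in F1 control and 173 and 162 in F1 Rif1 shRNA, a rise of 1.12 on the log2 scale (SE 0.12, limma adjusted p = 9.65e-05). On 1439891_at they were 250 and 151 in control and 115 and 145 in knockdown arrays, a log2 fold change of -0.49 that did not pass (SE 0.17, limma adjusted p = 0.0801). With all arrays that lower reading passed under median scaling (limma adjusted p = 0.0273) and normalization within each setting (0.0413). It also passed with a crossed replicate block (0.0141). Without F1 control replicate 2, the replicate at 151, its log2 fold change was -0.76. A direction for the Zfp703 transcript is therefore not settled by these arrays.

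Zfp800, a gene known for its role in the endocrine cells of the pancreas, rose on the 5 of its 7 probe sets that were tested, with log2 fold changes of 0.70 to 0.94. Of these 5, 4 exceeded the 40th percentile on fewer than 2 arrays outside the F1 knockdown and so were tested only through the group where they are high; all but 1456791_at are of this kind, and all 5 also passed with no filter. On 1447875_x_at the signals were 41.2 and 50.0 in control and 109 and 129 in knockdown arrays (0.94, SE 0.12, limma adjusted p = 0.000339). On 1456791_at they were 84.6 and 97.2, and 195 and 219 (0.84, limma adjusted p = 0.000451). Probe sets of the same gene share the RNA of the same arrays and are not further replicates. Zfp711 had 46.9 and 43.6 in F1 control and 124 and 117 in F1 Rif1 shRNA (0.96, SE 0.12, limma adjusted p = 0.00036). It was the only member gene to rise in both cells.

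Zfp677 (0.48, limma adjusted p = 0.0306), Zfp707 (0.43, limma adjusted p = 0.0391) and Zfp771 (1440817_x_at; 0.34, limma adjusted p = 0.0212) made up the rest of the rises. Each of these last 3 missed the threshold when any single F1 array was left out. Without F1 control replicate 1 the adjusted p was 0.0772 for Zfp677, 0.0528 for Zfp707 and 0.0648 for Zfp771, and without control replicate 2 it was 0.231, 0.313 and 0.18. Without Rif1 shRNA replicate 1 it was 0.0925, 0.29 and 0.11, and without replicate 2 it was 0.235, 0.13 and 0.201.

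Among the falls, Zfp991 led. Its probe set 1424784_at had signals of 989 and 862 in F1 control and 451 and 419 in F1 Rif1 shRNA (log2 fold change -1.07, SE 0.12, limma adjusted p = 0.000134). The other, 1451477_at, had 1144 and 1233 in control and 709 and 629 in knockdown arrays (-0.83, limma adjusted p = 0.000718). Zfp979 had 1629 and 1131 in control and 751 and 789 in knockdown arrays (-0.82, SE 0.13, limma adjusted p = 0.00142). The control replicates of Zfp979 lay further apart than those of Zfp991, but neither overlapped the knockdown arrays.

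Zfp553 fell on both of its probe sets. On 1426564_at the signals were 1229 and 1162 in control and 774 and 801 in knockdown arrays (-0.62, SE 0.07, limma adjusted p = 0.000205), and on 1426563_at they were 491 and 481, and 330 and 312 (-0.59, limma adjusted p = 0.00157). Zfp568, whose KRAB protein represses a placental promoter of the growth factor gene Igf2, also fell on both. On 1435091_at its signals were 2149 and 2233 in control and 1709 and 1762 in knockdown arrays (-0.38, limma adjusted p = 0.00652), and on 1459929_at they were 459 and 527, and 321 and 368 (-0.52, limma adjusted p = 0.0042). Both Zfp568 calls were lost without F1 control replicate 2 (adjusted p = 0.0666 and 0.0561) and without F1 Rif1 shRNA replicate 1 (0.0748 and 0.0725). Of the 60 member genes with 2 or more tested probe sets, 17 had a call in F1, 5 of them on every tested probe set in the same direction (Zfp503, Zfp553, Zfp568, Zfp800 and Zfp991), and 0 had calls in opposite directions. Over all 6704 genes with 2 or more tested probe sets, 29.2% had a call in F1, 5.4% on every tested probe set in the same direction, and 0.149% had opposite calls, against 28.3%, 8.33% and 0% here.

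Further falls were between 0.50 and 0.57 on the log2 scale. Zfp936 fell by 0.57 (limma adjusted p = 0.00547), from 1057 and 1020 to 741 and 667. Zfp516 (1437921_x_at), known as an activator of the brown fat gene Ucp1, fell by 0.57 (limma adjusted p = 0.00416), from 458 and 469 to 307 and 314. Zfp958 fell by 0.52 (limma adjusted p = 0.00403), from 404 and 424 to 277 and 291. These 3 lost their call without 1 of the Rif1 shRNA arrays: without replicate 2 for Zfp936 (adjusted p = 0.0683), and without replicate 1 for Zfp516 (0.0531) and Zfp958 (0.0575).

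Zfp932, whose KRAB protein binds endogenous retroviruses, fell from 773 and 754 to 501 and 579 (-0.52, limma adjusted p = 0.0151). Zfp799 (-0.54, limma adjusted p = 0.0118), Zfp975 (1460017_at; -0.52, limma adjusted p = 0.0192), Zfp763 (1434675_at; -0.52, limma adjusted p = 0.0209) and Zfp704 (1417849_at; -0.50, limma adjusted p = 0.0049) fell as well. The knockdown arrays were below the control arrays for all 5 on these probe sets. The other tested Zfp763 probe set, 1453959_at, had the opposite sign (0.24) and did not pass, so a direction for Zfp763 is not settled. Those of Zfp704 (-0.27) and Zfp975 (-0.14) did not pass either. Zfp799 missed the threshold without control replicate 1 (adjusted p = 0.137) or Rif1 shRNA replicate 2 (0.133), and Zfp704 without control replicate 2 (0.08) or Rif1 shRNA replicate 1 (0.0711). For Zfp932 the adjusted p was 0.0985, 0.0758 and 0.169 without control replicate 1, control replicate 2 and Rif1 shRNA replicate 1. Zfp975 and Zfp763 missed it without any single F1 array, with adjusted p of 0.0806 to 0.178 and of 0.107 to 0.149.

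The other 8 genes that fell were Zfp811, Zfp982, Zfp830 (2 probe sets), Zfp764, Zfp710, Zfp931, Zfp532 and Zfp655. The smallest fall was 0.26 for Zfp655 (1428341_at), from 974 and 951 to 822 and 822. Zfp655 and Zfp764 missed the threshold without any single F1 array, with adjusted p of 0.0774 to 0.161 and of 0.127 to 0.201. Zfp655 also missed it with median scaling (adjusted p = 0.154). For Zfp931 the adjusted p was 0.388, 0.232 and 0.231 on leaving out control replicate 1, Rif1 shRNA replicate 1 and Rif1 shRNA replicate 2 of F1, and 0.0551 and 0.0568 on leaving out J1 control replicate 1 and 2. For Zfp830 on 1450942_at it was 0.22, 0.128 and 0.138 when the same 3 F1 arrays were left out. Zfp710 (1435168_at) had 727 and 792 in F1 control and 567 and 629 in F1 Rif1 shRNA (-0.37, limma adjusted p = 0.0188). Zfp710 is the only member gene called as lower in both cells, and on this probe set only. Its other tested probe set, 1435954_at, had 0.04 in J1 and -0.34 in F1 and passed in neither. In F1 1435168_at missed the threshold on leaving out control replicate 1 (adjusted p = 0.0508), control replicate 2 (0.155) or Rif1 shRNA replicate 1 (0.214). The F1 calls for the named probe sets of Zfp560, Zfp703, Zfp503, Zfp711, Zfp800, Zfp991, Zfp979 and Zfp553 held under every alternative in which they were tested, each left-out array included. The count of 37 did not: it was 23 and 24 without F1 control replicate 1 and 2, and 16 and 21 without F1 Rif1 shRNA replicate 1 and 2.

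**Figure D2:**
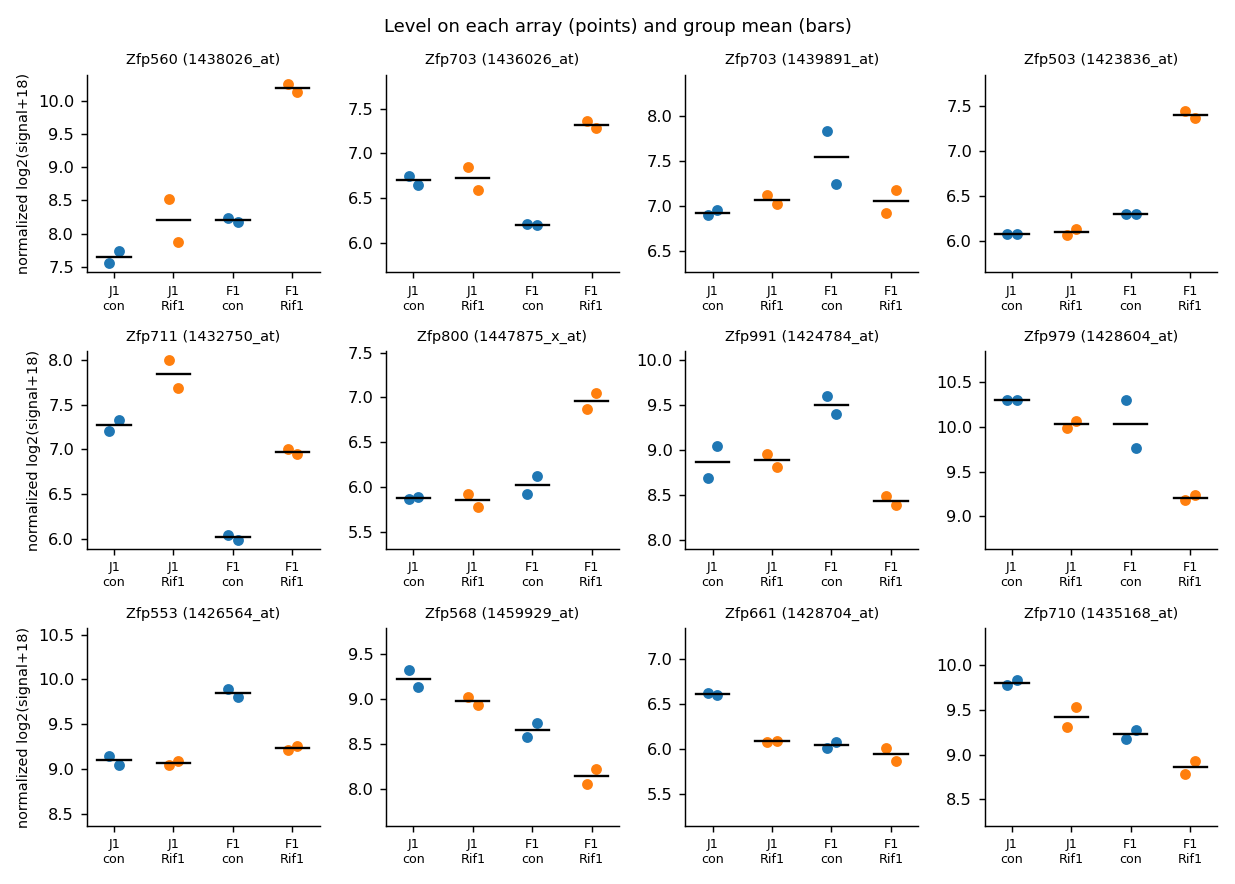
Level on each array (points, normalized log2(signal + 18), vertical axis) and group mean (bars) for 12 member probe sets in the 4 groups, with control in blue and Rif1 shRNA in orange; each panel has its own vertical range. The F1 knockdown points lie above the F1 control points for Zfp560, Zfp503, Zfp711, Zfp800 and the first Zfp703 probe set, and below them for Zfp991, Zfp979, Zfp553, Zfp568 and the second Zfp703 probe set, whose difference did not pass.

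The F1 groups also differed in markers of other cells and in Y-linked genes. Of 14 measured feeder fibroblast markers, 12 rose in F1 Rif1 shRNA and 0 fell, and their summed signal was 17969 to 18276 in control and 34692 to 36296 in knockdown arrays. Of 6 measured trophoblast and simple epithelium markers 4 rose and 1 fell, with summed signals of 2295 to 2490 in control and 9429 to 10280 in knockdown arrays. Of 10 ES cell markers 1 rose and 5 fell. All 7 measured markers of the 2-cell-like state rose in F1, and 5 of the 7 in J1. Both measured Y-linked genes rose in F1, from a summed signal of 26.1 to 27.5 in control to 1055 to 1102 in knockdown arrays, beside 937 to 1080 on J1 arrays. No measured gene of these lists is listed at 0. The part of these differences in the F1 values of the zinc finger genes was not tested. In such bulk RNA fewer cells of a type and less RNA per cell cannot be told apart. Because the F1 groups also differ in Y-linked genes, an effect of Rif1 shRNA cannot be told apart from other differences between them.

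Over all 232 members the median F1 effect was -0.07, against -0.03 for all tested, and 32.8% lay above 0, against 44.1% of all. The quartiles were -0.23 and 0.05, and the ends -1.07 and 1.99. The member median stayed below that of all tested under every alternative, with differences of -0.0781 to -0.0281. An unadjusted p under 0.05 was found for 69 members (29.7%), beside 26.9% of all. Counted by gene at a single probe set each, 7 of 145 genes rose (4.83%) and 19 fell (13.1%) in F1, beside 10.6% and 8.2% of all 14714 genes read the same way. In J1, 1 rose (0.69%) and 2 fell (1.38%), beside 1.86% and 2.17% of all. Whether these shares differ from those of all genes was not tested.

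Start regions of members that changed in F1 are printed because their changes can then be set beside the sequence. The set of promoter sequences used here (build GRCm38.p6) held 169 start sites for 139 of the 165 genes. Among these were 15 of the 20 genes that fell and 5 of the 8 that rose. The set held none for Zfp703, Zfp711, Zfp991 and Zfp568. Each line gives the 250 bases before a start site, read 5′ to 3′ on the strand of the gene. On either strand, capitals mark CCAAT boxes, the GC box GGGCGG, the ETS factor core CCGGAAG and the letters TGTCACTC.
Zfp560, which rose most, chr9:20385159-20385408, minus strand: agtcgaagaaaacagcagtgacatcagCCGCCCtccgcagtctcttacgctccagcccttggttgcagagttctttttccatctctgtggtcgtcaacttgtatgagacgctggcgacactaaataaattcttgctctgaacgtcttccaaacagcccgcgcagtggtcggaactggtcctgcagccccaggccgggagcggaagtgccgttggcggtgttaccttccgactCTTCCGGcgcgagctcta
Zfp503, which rose, chr14:21989602-21989851, minus strand: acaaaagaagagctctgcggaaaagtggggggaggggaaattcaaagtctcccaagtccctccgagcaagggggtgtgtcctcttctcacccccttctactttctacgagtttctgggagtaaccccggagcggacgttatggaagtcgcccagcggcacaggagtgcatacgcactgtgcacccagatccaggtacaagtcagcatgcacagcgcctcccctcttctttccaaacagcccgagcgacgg
Zfp553, which fell, chr7:127232811-127233060, plus strand: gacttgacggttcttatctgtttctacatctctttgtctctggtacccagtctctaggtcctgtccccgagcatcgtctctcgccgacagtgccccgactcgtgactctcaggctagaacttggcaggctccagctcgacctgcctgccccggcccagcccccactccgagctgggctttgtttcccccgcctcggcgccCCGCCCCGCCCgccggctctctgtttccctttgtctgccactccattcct
Zfp979, which fell, chr4:147642509-147642758, minus strand: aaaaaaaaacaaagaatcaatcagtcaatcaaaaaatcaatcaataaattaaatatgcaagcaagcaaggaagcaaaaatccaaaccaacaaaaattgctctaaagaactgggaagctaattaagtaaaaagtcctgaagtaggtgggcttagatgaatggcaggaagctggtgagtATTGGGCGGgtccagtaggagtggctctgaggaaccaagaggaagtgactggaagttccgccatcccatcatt
Zfp958, which fell, chr8:4612920-4613169, plus strand, first of 3 start sites: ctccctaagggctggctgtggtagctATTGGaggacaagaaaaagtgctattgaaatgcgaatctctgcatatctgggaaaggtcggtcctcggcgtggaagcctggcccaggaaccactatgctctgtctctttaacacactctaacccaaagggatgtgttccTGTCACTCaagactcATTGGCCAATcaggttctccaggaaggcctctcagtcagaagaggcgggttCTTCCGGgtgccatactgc
Zfp932, which fell, chr5:109996260-109996509, plus strand, first of 2 start sites: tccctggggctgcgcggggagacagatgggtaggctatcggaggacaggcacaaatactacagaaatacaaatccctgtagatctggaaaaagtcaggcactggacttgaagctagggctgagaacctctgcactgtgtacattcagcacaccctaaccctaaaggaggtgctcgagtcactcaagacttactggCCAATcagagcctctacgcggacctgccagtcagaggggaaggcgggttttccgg
In Zfp979 a CCAAT and a GC box overlap and are marked as 1 run, as are 2 overlapping GC boxes in Zfp553 and 2 CCAAT boxes that adjoin in Zfp958. The Zfp979 window holds 2 CpG pairs, that of Zfp560 19 and that of Zfp553 17.

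CCAAT occurred on either strand in 47.9% of the 169 member windows and in 33.8% of all 32851 windows of the same length in the table. It occurred in 16 of the 20 windows of genes that fell in F1 (12 of 15 genes), in 2 of the 6 windows of genes that rose, and in 45.5% of the 121 windows of tested genes not called. The letters CCAATCAG, which contain CCAAT, stood in 17.8% of member windows against 3.83% of all, and TGTCACTC in 13.6% against 1.37%; both were picked after these sequences had been seen. GGGCGG occurred in 45% of member windows against 32.7%, CCGGAAG in 13.6% against 6.91%, and TATAAA in 4.73% against 12.4%. The median number of CpG pairs was 12 in member windows and 6 in all, and it was 6.5 in the windows of genes that fell and 15.5 in the 6 of genes that rose. Windows of start sites of the same gene overlap, and duplicated genes share sequence, so these shares are descriptions; a match is not a bound site.

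The F1 and J1 effects rest on separate control arrays and can be set side by side. Of the 37 members called in F1, 28 had the same sign in J1 (75.7%), beside 2785 of the 4768 probe sets called in F1 overall (58.4%). Among the 13 that rose in F1, 9 were above 0 in J1, and among the 24 that fell 19 were below 0. Over all 232 members, called or not, 35.3% lay above 0 in J1. Whether the effects in the 2 cells are linked was not tested. Zfp800 alone gave 5 of the 13 probe sets that rose, with J1 values from -0.19 to 0.10. Called in both were Zfp711 and Zfp710, 2 of the 3 J1 calls and 2 of the 37 F1 calls.

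**Figure D3:**
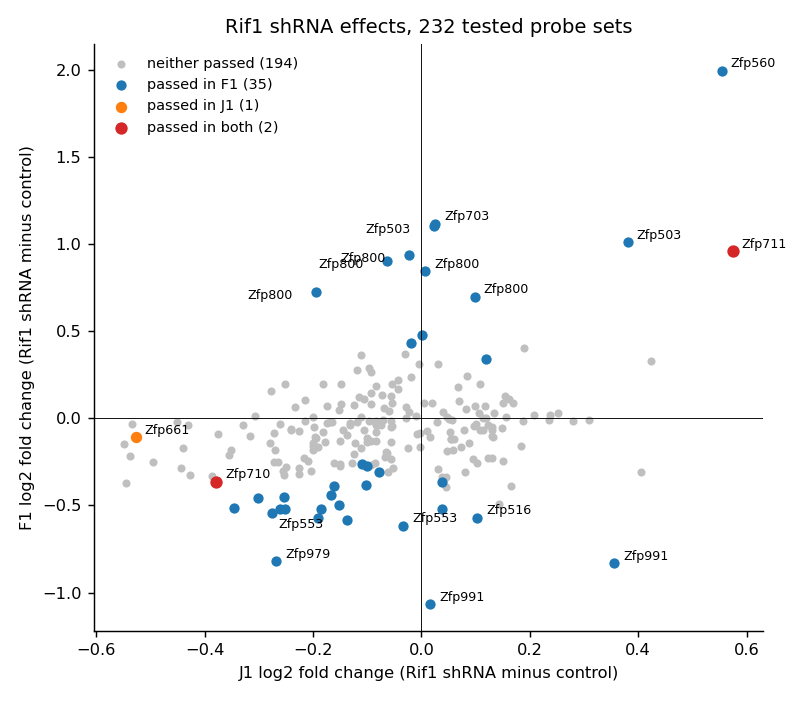
Log2 fold change of each of the 232 tested member probe sets in J1 (horizontal axis) and F1 (vertical axis), Rif1 shRNA minus control; colours give where the probe set passed. Zfp711 at upper right and Zfp710 at lower left passed in both, while Zfp560, Zfp503, Zfp703 and Zfp800 are the high points and Zfp991 and Zfp979 the low ones in F1.

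The difference between the knockdown effects was tested directly. It passed for 12 members of 8 genes (5.17%, beside 8.37% of all tested), 7 with a higher and 5 with a lower effect in F1 (4.99% and 3.37% of all). The difference reached 2-fold for 5 members (2.16%, beside 1.51% of all). Zfp560 had the largest positive difference (1.44, SE 0.24, limma adjusted p = 0.0037), then Zfp703 (1436026_at; 1.09, limma adjusted p = 0.00257) and Zfp503 (1423836_at; 1.08, limma adjusted p = 0.00119). Zfp800 passed on 4 of its 5 probe sets, with 0.84 to 0.97. In J1 the Zfp503 probe set had 52.2 and 47.7 in control and 49.3 and 56.4 in knockdown arrays, which overlap. Its second probe set, 1423835_at, had a J1 log2 fold change of 0.38 (limma adjusted p = 0.225), and its difference of 0.63 did not pass (limma adjusted p = 0.104). The other tested Zfp703 probe set, 1439891_at, had a difference of the opposite sign that did not pass (-0.64, limma adjusted p = 0.142).

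Zfp991 had a more negative effect in F1 on both probe sets, by 1.19 on 1451477_at (limma adjusted p = 0.00143) and by 1.08 on 1424784_at (limma adjusted p = 0.00271). In J1 the signals of 1451477_at were 526 and 419 in control and 647 and 544 in knockdown arrays, with no overlap (log2 fold change 0.36, adjusted p = 0.142). Zfp516 (-0.67, limma adjusted p = 0.0193), Zfp553 (1426564_at; -0.58, limma adjusted p = 0.00577) and Zfp958 (-0.56, limma adjusted p = 0.0294) completed the list. The difference for Zfp516 missed the threshold without J1 control replicate 1 (adjusted p = 0.0524) and without any single F1 array (0.0777 to 0.103), and that for Zfp958 without either J1 control array (0.066 and 0.0831) or any F1 array (0.0892 to 0.149). The number of members passing was 19 and 20 without J1 Rif1 shRNA replicate 1 and 2, and 8 without F1 Rif1 shRNA replicate 2. For Zfp711 the difference was 0.38 (SE 0.17, limma adjusted p = 0.222) and for Zfp710 on 1435168_at 0.01 (SE 0.13, limma adjusted p = 0.967). Missing the threshold does not show that their effects were alike.

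Members with known roles were read at 1 probe set each. The Z3 complex of Zfp532, Zfp592 and Zfp687 joins the chromatin reader ZMYND8 at active genes. All 3 had negative values in F1 (-0.23 to -0.27), and Zfp532 passed (limma adjusted p = 0.0299), from 1130 and 1045 to 910 and 934. Zfp532 missed it without control replicate 1 (adjusted p = 0.232) or 2 (0.0572) and without Rif1 shRNA replicate 1 (0.229) or 2 (0.147). In J1 the 3 ranged from -0.26 to -0.06 and none passed, with Zfp687 the lowest (limma adjusted p = 0.171).

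Of 5 genes that silence retroelements or imprinted genes, Zfp568 and Zfp932 fell in F1 as given above. Zfp638, which brings the HUSH silencing complex to unintegrated retroviral DNA, had 868 and 845 in F1 control and 747 and 772 in F1 Rif1 shRNA (-0.21, limma adjusted p = 0.0673), without overlap but without passing. Zfp809, which recognises the primer binding site of murine leukaemia virus, had 329 and 358, and 416 and 433 (0.20, limma adjusted p = 0.211). Zfp708, which binds the retroelement RMER19B, had 45.1 and 55.1, and 45.8 and 53.2, which overlap (-0.02). All 5 had negative J1 values, from -0.19 to -0.10, and none passed.

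Of 7 measured genes of the list on development, Zfp503 and Zfp711 rose and Zfp704 fell in F1, and Zfp711 rose in J1. Zfp703 was read here at 1439891_at, where it passed in neither cell (-0.49 in F1 and 0.14 in J1). Its call as higher in F1 came from 1436026_at, so this tally depends on the probe set used. Zfp521, which steers ES cells towards neural fate, had 37.4 and 37.3 in F1 control and 39.2 and 43.0 in F1 Rif1 shRNA (0.09, limma adjusted p = 0.733). Zfp608 (-0.01) and Zfp750 (-0.18), a regulator of epidermal differentiation, did not pass either. Of 4 genes acting on ribosomes or RNA, only Zfp830 fell in F1 (1423338_at; -0.31, limma adjusted p = 0.0172), from 767 and 836 to 669 and 645. That call was lost on leaving out control replicate 2 (adjusted p = 0.156), Rif1 shRNA replicate 1 (0.107) or Rif1 shRNA replicate 2 (0.156). Zfp598, the ubiquitin ligase that marks collided ribosomes, had 1310 and 1278 in control and 1292 and 1364 in knockdown arrays, which overlap (0.01). Zfp593 (-0.17) and Zfp622 (1438000_x_at; 0.07) did not pass. Among 4 measured members of the last list, Zfp644, a partner of the H3K9 methyltransferases G9a and GLP, had 0.11, Zfp746 had -0.11, Zfp819 had -0.24 and Zfp827, which recruits the NuRD complex, had -0.28 in F1. None of these 4 passed in F1 or in J1.

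The co-repressor machinery that KRAB proteins call on was measured for 30 of 33 listed genes. In F1, 1 of the 30 rose and 5 fell, while 10.6% of all 14714 genes read at 1 probe set each rose and 8.2% fell. The list median, over genes, was -0.16 beside -0.03 for all tested probe sets. Whether the list differs from all genes was not tested. Trim28 itself had 9529 and 9483 in F1 control and 9837 and 9743 in F1 Rif1 shRNA, a log2 fold change of 0.00 after normalization. Setdb1 had 940 and 934, and 810 and 805 (-0.25, limma adjusted p = 0.17). Uhrf1, which guides maintenance DNA methylation, fell from 3108 and 2735 to 2065 and 2057 (-0.54, limma adjusted p = 0.000148). Morc3 (-0.46), Mta1 (-0.40), the de novo methyltransferase gene Dnmt3b (-0.28) and the heterochromatin protein gene Cbx1 (-0.21) fell as well, and the deacetylase gene Hdac2 rose (0.37). Without F1 Rif1 shRNA replicate 1 the calls were lost for Mta1 (adjusted p = 0.0587), Hdac2 (0.0574), Cbx1 (0.117) and Dnmt3b (0.169). Cbx1 and Dnmt3b also missed the threshold without control replicate 1 (0.102 and 0.157) and without Rif1 shRNA replicate 2 (0.0587 and 0.0586). In J1 none passed, while 1.86% of all genes rose and 2.17% fell. The J1 median over the listed genes was -0.10, beside 0.00 for all tested probe sets. The smallest p were those of Dnmt3a (0.34, limma adjusted p = 0.0566), Wiz (-0.38, limma adjusted p = 0.0892), Smarcad1 (-0.20, limma adjusted p = 0.0908) and Dnmt1 (-0.18, limma adjusted p = 0.102). Without J1 Rif1 shRNA replicate 1, Wiz passed (adjusted p = 0.043).

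Many of these genes lie next to each other. In the RefSeq gene order, 56 of the 165 genes stood in 14 runs of 3 or more members with at most 2 other protein-coding genes between neighbours, and 49 of them were measured. In runs 0 genes rose and 7 fell in F1, and outside runs 7 of 96 rose and 12 fell. Over all 14714 genes read at 1 probe set each, 10.6% rose and 8.2% fell in F1. In F1, 69.4% of genes in runs and 68.8% of those outside lay below 0, while 44.1% of all tested probe sets lay above 0. In J1, 36 of the 49 genes in runs lay below 0 (73.5%) and 57 of 96 outside (59.4%). Over all tested probe sets 49.7% lay above 0 in J1. Both shares over all tested count probe sets above 0, whereas the shares for runs count genes below 0, so they are unlike measures. The 3 J1 calls were all outside runs. Whether genes in runs differ from the others was not tested.

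The longest run, from Zfp948 to Zfp946, had 11 genes and 10 measured. All 10 had negative J1 values, from -0.54 to -0.05 with a median of -0.23, and none passed. In F1 the same genes ranged from -0.27 to 0.28, 6 of them below 0. Zfp946 had 142 and 156 in J1 control and 120 and 104 in J1 Rif1 shRNA (-0.49, limma adjusted p = 0.0765). How alike the genes of a run are in sequence was not compared, and where they are near copies a probe can read more than 1 of them.

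The run of Zfp991, Zfp982 and Zfp979, in a cluster of KRAB zinc finger genes on chromosome 4, was the only one in which every measured gene fell in F1. Zfp982 (1439065_x_at) had 1817 and 1567 in F1 control and 1229 and 1298 in F1 Rif1 shRNA (-0.45, limma adjusted p = 0.00181). In J1 the 3 genes had 0.36, -0.25 and -0.27 in that order, and none passed. In the run from Zfp871 to Zfp870, Zfp799 and Zfp811 fell in F1 and all 4 genes had negative values in both cells. Zfp811 (-0.46, limma adjusted p = 0.0354) missed the threshold without any single F1 array (0.0661 to 0.291).

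**Figure D4:**
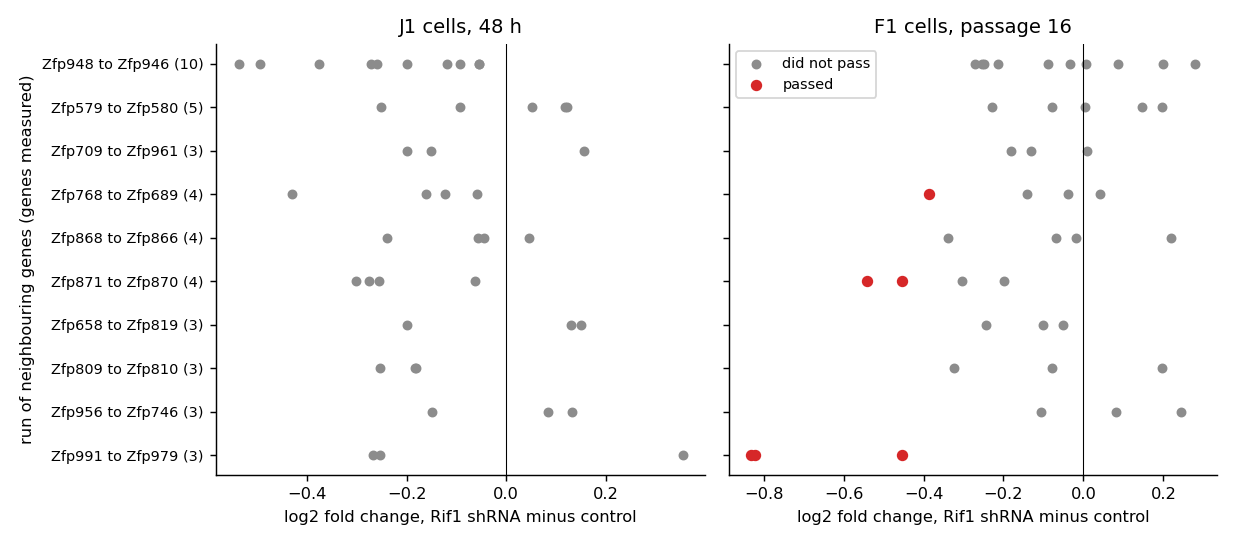
Log2 fold change (horizontal axis, Rif1 shRNA minus control) of each measured gene in the 10 runs of neighbouring members with at least 3 genes measured, 1 row a run with the number of genes measured; red marks genes that passed. All 10 genes of the top run lie below 0 in J1, and all 3 genes of the bottom run passed as lower in F1.

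The last comparison set the control cells side by side. J1 and F1 controls differ in strain, culture history, shRNA delivery and array scaling, which cannot be told apart. The actin 3′ to 5′ ratio was 2.71 and 2.61 in J1 control against 1.35 and 1.41 in F1 control. Both measured Y-linked genes were lower in F1 control, by log2 differences of -4.89 and -3.22, as were all 6 trophoblast and simple epithelium markers, and of 14 feeder fibroblast markers 7 were higher and 4 lower. The part of these in the values between controls was not tested. After quantile normalization, 149 of the 232 members passed (64.2%, beside 67.5% of all tested), 71 higher and 78 lower in F1 control (33.5% and 34% of all). That split rests on the scaling: it was 121 and 42 with values as deposited, 110 and 44 with median scaling, and 123 and 41 with normalization within each setting, under which the median of all tested moved from -0.02 to 0.304, 0.262 and 0.311. At least 2-fold differences were found for 28 members of 24 genes (12.1%, beside 16.5% of all).

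Higher in F1 control were Zfp934 (1457079_at; log2 difference 1.36), Zfp771 (1440971_x_at; 1.31), Zfp936 (1.28), Zfp516 (1437921_x_at; 1.17), Zfp950 (1428748_at; 1.17), Zfp871 (1.15), Zfp932 (1.14) and Zfp622 (1446477_at; 1.13). Zfp932 had 200 and 202 in J1 control and 773 and 754 in F1 control. Lower in F1 control were Zfp995 (1455648_at; -2.10), Zfp784 (-2.01), Zfp618 (1454087_at; -1.85), Zfp940 (-1.74), Zfp825 (-1.58), Zfp652 (1442770_at; -1.56), Zfp521 (1439909_at; -1.48) and Zfp710 (1435954_at; -1.44). Zfp784 had 163 and 131 in J1 control and 26.8 and 30.8 in F1 control. For these 16 the direction and the call held under every alternative in which they were tested, with adjusted p up to 0.00144. With the filter at the 60th percentile 13 of them were tested, as were 13 without IDs that end in _s_at, _x_at or _a_at. Zfp652 (1442770_at) was tested only through 1 array of each J1 group, where it is high, and dropped out without J1 control replicate 2 or J1 Rif1 shRNA replicate 2; it also passed with no filter. Zfp936, Zfp516 and Zfp932, higher in F1 control than in J1 control, are also among the genes that fell in F1 Rif1 shRNA. Because the F1 control arrays enter both comparisons, that pairing is no independent result.

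Probe sets of the same gene could disagree between the controls. Of 60 genes with 2 or more tested probe sets, 16 had calls in opposite directions (26.7%) and 14 had every tested probe set called one way (23.3%). Both are near the shares over all 6704 such genes, 27% and 21.9%. Zfp618, which encodes a partner of UHRF2, had 209 and 190 in J1 control and 56.0 and 57.5 in F1 control on 1454087_at. Its other 3 tested probe sets were higher in F1 control, by 0.59 to 1.01. Zfp652 was lower on 1442770_at, with 43.6 and 57.2 in J1 control and 4.18 and 3.68 in F1 control, and higher on 1434720_at (0.91, limma adjusted p = 0.000262). Zfp622 had 0.58 on 1425030_at and -1.39 on 1447775_x_at. Zfp771 was higher on 1440971_x_at (1.31) and 1440817_x_at (1.15). It was lower on 1456757_at (-0.46) and 1441260_a_at (-0.30), the last tested only through J1 control, where it is high. For such genes a direction between the cells cannot be given, and whether strain sequence under the probes plays a part was not tested.

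**Figure D5:**
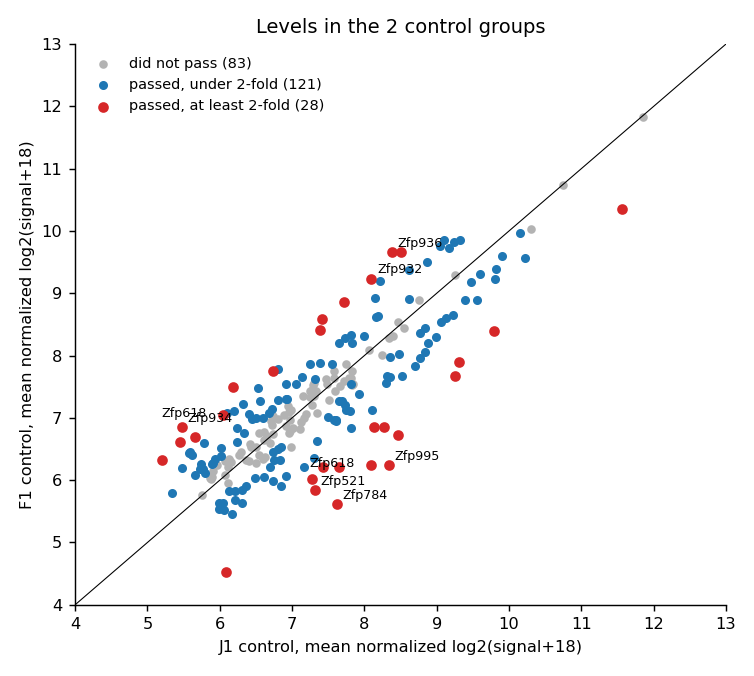
Mean normalized log2(signal + 18) of each of the 232 tested members in J1 control (horizontal axis) and F1 control (vertical axis), with the line of equal level; blue passed, red passed with at least a 2-fold difference. Points fall on both sides of the line, 71 higher and 78 lower in F1 control, and the labelled Zfp618 probe sets lie on opposite sides of it.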

How the data were processed

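RNA of 8 samples, 2 in each of 4 groups by cell and shRNA, was measured on 1 array each. The deposited values are linear intensity signals per probe set, made with MAS5 per the submitters' processing notes; neither its version nor its target scaling is stated in the sources used here. Of 45101 probe sets, 64 were array controls and entered no test. An offset of 18, the 10th percentile over the table, was added before taking log2, and the 8 arrays were quantile normalized together. The 31605 probe sets that exceeded the array's 40th percentile 2 or more times were tested.

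Group means were fitted with limma 3.58.1 in R 4.3.3 (eBayes with an intensity trend, residual degrees of freedom 4, prior 6.94). The threshold was a two-sided Benjamini-Hochberg adjusted p under 0.05 over all tested. The fit was tested on simulated data. Figures used matplotlib 3.10.9 in Python 3.11.15. All 295 member probe sets matched a RefSeq gene by Entrez ID, and 36 carry IDs ending in _s_at, _x_at or _a_at, which mark probes that can read several transcripts. Same-numbered replicates did not deviate together (correlation of deviations -0.339 in J1 and 0.194 in F1), and nothing in the labels pairs them.

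The text names, past the threshold and without overlap between groups, up to 12 genes each way per knockdown, 6 each way for the difference and 8 each way between controls; the 5 with the smallest p where fewer than 5 passed; every measured member of 5 function lists; 4 co-repressor genes with the smallest p and all that passed; and every Rif1 probe set. The remaining genes that fell in F1, the genes of runs and the disagreeing probe sets were named after their values were seen. The members and lists were chosen with earlier results of these data known. The offset, filter, scaling, spread and threshold were varied, and a replicate block, 1 probe set per gene and leaving out each array were tried; a crossed block was added after the values were seen. Precision is limited by having 2 arrays a group.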

Additional observations from a re-analysis of the deposited data

Results flagged for a closer look

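For 12 member probe sets of 8 genes the Rif1 shRNA effect differed between F1 and J1 in the direct test of the difference. The F1 effect was higher for Zfp560 (log2 difference 1.44, limma adjusted p = 0.0037), Zfp703 on 1436026_at (1.09, limma adjusted p = 0.00257) and Zfp503 on 1423836_at (1.08, limma adjusted p = 0.00119). On 1439891_at the difference for Zfp703 had the opposite sign and did not pass (-0.64, limma adjusted p = 0.142). Zfp800 had 0.97 on 1456790_at (limma adjusted p = 0.00285), 0.96 on 1447875_x_at (0.00545), 0.92 on 1456574_at (0.00489) and 0.84 on 1456791_at (0.00803). All but the last of these probe sets exceeded the 40th percentile on fewer than 2 arrays outside the F1 knockdown, where they are high, and so were tested only through it; with no filter they passed too. Probe set 1456791_at missed the threshold without F1 control replicate 1 (adjusted p = 0.0543) or F1 Rif1 shRNA replicate 2 (0.0665). The F1 effect was lower for Zfp991, by -1.19 on 1451477_at (limma adjusted p = 0.00143) and -1.08 on 1424784_at (0.00271), for Zfp516 (-0.67, limma adjusted p = 0.0193), Zfp553 on 1426564_at (-0.58, limma adjusted p = 0.00577) and Zfp958 (-0.56, limma adjusted p = 0.0294). J1 and F1 differ in strain, time since knockdown and shRNA delivery as well, which cannot be told apart. The F1 groups also differ in Y-linked genes, with summed signals of 26.1 to 27.5 in control and 1055 to 1102 in Rif1 shRNA. Of 14 measured feeder fibroblast markers, 11 had a higher effect in F1 and 0 a lower one. The part of these in the differences was not tested. Groups of 2 arrays were too small to look for single outlying arrays.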

How the results depend on the processing

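No call of a named member changed sign under any alternative. The J1 count of 3 members was 0 with median scaling, 1 with no intensity trend, 0 with only the 4 J1 arrays, 7 with a crossed replicate block, 0 at an adjusted p under 0.01, and 0 to 8 when each array was left out. The F1 count of 37 was 59 with normalization within each setting, 74 with only the 4 F1 arrays, 22 at an adjusted p under 0.01, and 16 to 51 with each array left out. The count of 12 for the difference was 6 with 1 probe set per gene and 8 to 20 with each array left out, and that of 149 between controls was 95 with 1 probe set per gene, where fewer features were tested, and 116 to 155. With a replicate block the counts were 0 in J1, 29 in F1, 10 for the difference and 145 between controls; the labels do not show that the numbers pair the arrays. The cause of these changes was not tested, other than the smaller number tested with 1 probe set per gene. Values near the offset, such as those of Zfp652 on 1442770_at, have poorly measured folds: between controls this one ran from -3.35 to -0.67 over the alternatives.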
